A study of Mus musculus with 16 samples.

Results

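The regions described here are the stretches of Ago2-bound RNA, called by the dCLIP model, that overlapped a small RNA gene on the same strand. Small RNA genes were those whose Biotype in the deposited gene table was miRNA, snoRNA, snRNA, scaRNA or misc_RNA, also where they lie inside a larger host gene, and an overlap of 1 nt was enough. Of 962084 regions kept, 2847 (0.296%) were members, 412 at miRNA genes, 779 at snoRNA genes, 1348 at snRNA genes, 53 at scaRNA genes and 255 at misc_RNA genes. On the opposite strand of the same genes only 141 regions were found, and 11 member regions touched more than 1 small RNA gene.

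The tags came from 4 KO and 4 Flox Ago2 HITS-CLIP libraries of mouse splenic B cells (strain given as C57B6L/J), and 4 KO and 4 Flox RNA-seq libraries were made from total RNA. The labels call the groups KO and Flox and the study is about targets of miR-221 and miR-222. The Cre line, the age of the mice and a check of the deletion are not given in the sources used here. All cells had been cultured for 4 days with an antibody to CD40 at 500 ng/ml, IL-4 at 25 ng/ml and IL-21 at 10 ng/ml. HITS-CLIP sequences the RNA fragments left crosslinked to an immunoprecipitated protein, here Ago2. In the deposited output the libraries of a condition are already merged, so no CLIP value has an error between libraries. It also does not say which of its conditions is KO, so tags of both conditions were added and the sign of a difference is given as deposited, without a genotype.

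Ago2 is the protein that holds a mature miRNA and brings it to target RNAs. A miRNA is cut from a hairpin in 2 steps: the nuclear enzyme Drosha frees the hairpin from the primary transcript, and Dicer then removes the loop, leaving a duplex of a 5p and a 3p arm. The other classes are known mainly for roles outside this pathway. snoRNAs guide chemical modification of ribosomal RNA, scaRNAs guide that of spliceosomal RNA in Cajal bodies, snRNAs form the spliceosome, and misc_RNA holds abundant transcripts such as 7SK and 7SL, with Y and vault RNAs.

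The hairpins printed first are those of let-7, a family of miRNAs that share 1 seed and are abundant in many differentiated cells. In each line the capitals mark bases under bins that held at least 50% of the tags of the hairpin's highest bin. Hairpin sequences and arm positions are those of RefSeq (GRCm38.p6), and bins are 5 nt wide, so an edge can be off by a few bases.
Mirlet7d: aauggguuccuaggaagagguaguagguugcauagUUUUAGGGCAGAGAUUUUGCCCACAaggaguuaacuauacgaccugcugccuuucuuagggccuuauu
Mirlet7b: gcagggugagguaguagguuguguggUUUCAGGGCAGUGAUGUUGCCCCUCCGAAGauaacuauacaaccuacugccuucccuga
Mirlet7a-1: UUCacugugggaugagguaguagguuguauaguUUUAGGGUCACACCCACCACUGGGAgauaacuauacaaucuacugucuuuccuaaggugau
Mirlet7f-2: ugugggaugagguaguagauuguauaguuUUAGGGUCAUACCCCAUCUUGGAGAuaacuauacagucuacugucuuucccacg
Mirlet7g: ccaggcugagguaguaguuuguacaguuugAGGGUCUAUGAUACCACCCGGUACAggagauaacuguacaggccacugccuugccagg
Mirlet7i: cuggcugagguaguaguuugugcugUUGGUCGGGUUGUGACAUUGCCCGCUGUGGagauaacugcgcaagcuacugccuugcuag
Mirlet7c-2: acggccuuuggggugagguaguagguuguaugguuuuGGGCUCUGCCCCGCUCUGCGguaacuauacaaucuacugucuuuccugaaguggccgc

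The mature let-7 arms that flank these loops are shown next, with the seed (bases 2 to 8) in capitals, because the 7 genes share the 5p seed while their loops differ.
let-7d-5p: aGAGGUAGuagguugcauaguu
let-7b-5p: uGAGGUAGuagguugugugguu
let-7a-5p: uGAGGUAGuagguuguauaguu
let-7f-5p: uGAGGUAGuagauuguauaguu
let-7g-5p: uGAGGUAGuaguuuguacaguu
let-7i-5p: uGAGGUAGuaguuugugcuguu
let-7c-5p: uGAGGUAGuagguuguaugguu

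A contrasting set had its highest bin within the hairpin at the 5′ end, and capitals again mark the bases with most tags. These lay before the 5p arm, except that in Mir155 and Mir21a 2 marked bases lay inside it. Mir16-1 and Mir16-2 give the same 5p miRNA, Mir20a belongs to the miR-17-92 cluster of growth-promoting miRNAs, and Mir21a and Mir155 are miRNAs induced in activated lymphocytes.
Mir16-1: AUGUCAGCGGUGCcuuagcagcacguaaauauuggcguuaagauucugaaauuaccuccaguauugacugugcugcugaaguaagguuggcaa
Mir16-2: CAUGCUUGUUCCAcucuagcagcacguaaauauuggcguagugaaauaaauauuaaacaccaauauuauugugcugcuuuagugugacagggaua
Mir20a: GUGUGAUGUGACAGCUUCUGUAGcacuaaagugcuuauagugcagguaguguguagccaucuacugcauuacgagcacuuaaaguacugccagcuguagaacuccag
Mir21a: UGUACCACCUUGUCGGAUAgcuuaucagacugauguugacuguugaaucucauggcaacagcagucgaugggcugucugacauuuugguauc
Mir155: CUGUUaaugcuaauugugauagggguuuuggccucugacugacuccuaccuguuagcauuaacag

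The miR-221 and miR-222 hairpins are shown with its mature miRNAs in capitals, since no tag lay on either hairpin.
Mir221: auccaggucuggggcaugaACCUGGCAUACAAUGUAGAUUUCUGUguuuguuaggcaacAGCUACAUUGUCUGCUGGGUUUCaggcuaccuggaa
Mir222: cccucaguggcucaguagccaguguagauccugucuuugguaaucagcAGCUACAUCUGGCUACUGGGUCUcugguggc

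The first question was where in a miRNA hairpin the Ago2 tags lay. The mature arms, the parts that Ago2 is known to hold, were almost without tags, while loops and flanking bases had them. Over 552 hairpins with both arms annotated, the 5p arm had 0 tag nucleotides in 2014 bins lying wholly inside it, and the 3p arm had 5 tag nucleotides in 1975 bins. The loop averaged a depth of 0.58 tags per nt over 1517 bins and the stem 5′ of the 5p arm 0.95 over 665 bins, with depth meaning the number of tags over each nucleotide. The stem 3′ of the 3p arm averaged 0.24, and the 100 nt on either side averaged 0.91 (5′) and 0.99 (3′). At 303 hairpins with a single annotated mature miRNA, the mature bases had 5 tag nucleotides in 1077 bins and the rest of the hairpin 23298 in 4350 bins. Of these 303, only 1 had tags in the mature bases and 36 in the rest. How far single hairpins weigh on the 23298 was not examined. The averages over the 552 hairpins also rest on few of them: 10 had a tag in the loop, 17 in the 5′ stem and 2 in the 3p arm, where the highest depth was 0.6. Single hairpins also weigh on the means over the 552: Mir6546, at a depth of up to 660, held 50.3% of the tags of the 5′ flank, and without it that mean was 0.45. Without Mir3064, at up to 246.6, the 3′ flank averaged 0.89, and without Mir6418 the 3′ stem averaged 0.11. The sources used here do not say how reads over mature miRNAs were handled before the output was made, and whether they were set aside was not tested.

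**Figure D1:**
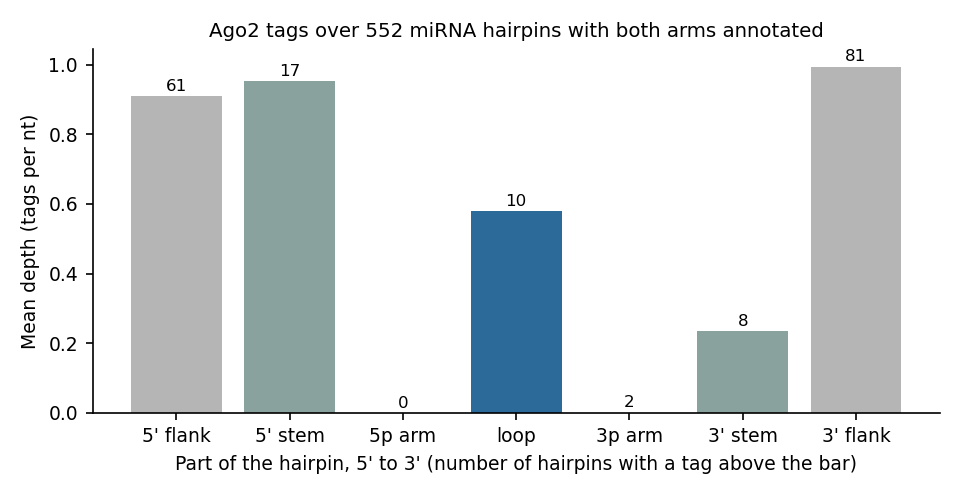
Mean depth of Ago2 tags (both conditions added) in each part of 552 hairpins with both arms annotated, counting only bins wholly inside a part; the number above a bar counts hairpins with a tag there. The 5p and 3p arms stand at about 0, against 0.58 in the loop and 0.91 to 0.99 in the flanks.

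Loop tags were found in 10 hairpins, 7 of them of let-7. The highest loop depth was 42 tags in Mirlet7d (chromosome 13, 48536012 to 48536114), and 30 in Mirlet7b (chromosome 15, 85707319 to 85707403). Mirlet7a-1 and Mirlet7f-2 had 27 each, Mirlet7g had 20, Mirlet7i had 14.8 and Mirlet7c-2 had 10. The other 3 were Mir34a, whose miRNA is known as a p53 target, with 17, Mir16-2 with 10 and Mir138-2 with 7. Thus 7 of the 10 genes of the let-7 list (Mir98 among them) that the table held had a region, and in all 7 the loop was the most deeply covered part of the hairpin.

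**Figure D2:**
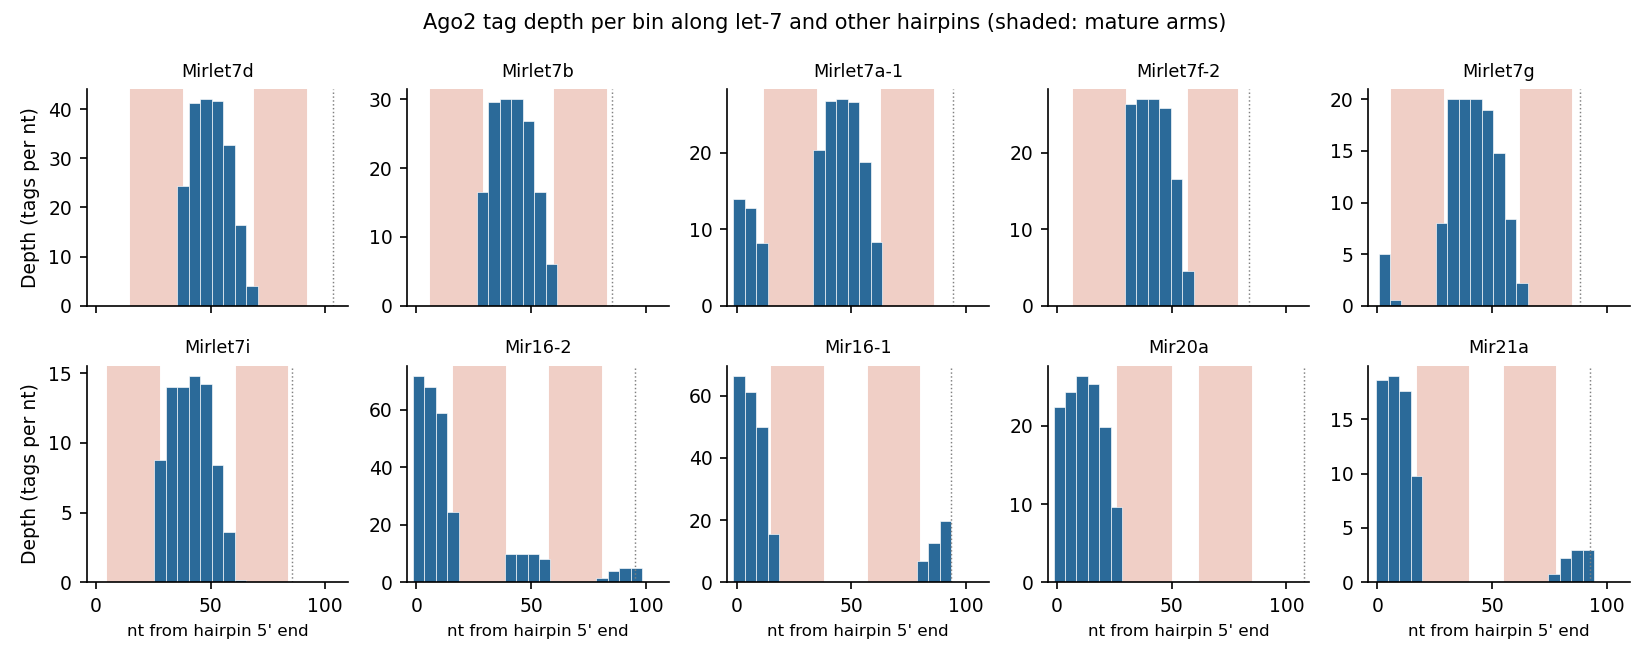
Depth of Ago2 tags in each 5-nt bin along 10 hairpins, by distance from the hairpin's 5′ end, with the mature arms shaded and the hairpin's end dotted; vertical scales differ. The 6 let-7 hairpins peak between the arms at 14.8 to 42 tags, and the miR-16, miR-20a and miR-21a hairpins peak before the 5p arm. Bars over a shaded edge are bins that straddle it.

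Tags before the 5p arm marked another group. The 5′ stem reached a depth of 67.8 in Mir16-2 (chromosome 3, 69009902 to 69009996) and 61.2 in Mir16-1 (chromosome 14, 61631880 to 61631972). Both also had tags in the adjoining 5′ flank, to 72.6 and 65.2. Mir20a had 26.4 in the stem and 27.8 in the flank, and Mir21a had 19 and 14.2. Mir301, Mir7-1 and Mir34a reached 17, 18 and 18.6 in the 5′ stem. Mir155, the miRNA of the BIC transcript that B cells induce on activation, had 29.2 in the 5′ flank, 14 in the highest bin over the hairpin and 12.2 in the 3′ flank. In the 3′ flank, after Mir3064, Mir16-1 reached 87, Mir15b 72.6 and Mir92-1 55.2. Within 100 nt 3′ of Mir15b lies Mir16-2, so both were measured over the same tags there.

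Of 86 miRNA genes from a list of miRNAs studied in B cells and other blood cells that the table held, 28 had a region. By family these were 7 of 10 for let-7, 4 of 4 for miR-15/16, 6 of 13 for miR-17-92 and its paralogs, 3 of 6 for miR-30 and 1 of 4 for miR-29. The single genes Mir155 and Mir21a each had a region, and miR-181 (0 of 4), miR-23/27/24 (0 of 5) and Mir150 had none. None of the 28 held a region past the differential rule, which required both a mean difference 0.25 or more in size and a deposited score of 5 or more. Over all regions kept the rule was met with a positive sign by 4.84% and with a negative sign by 3.29%. With a score above 5, the largest differences in the list were those of Mir15a at 0.24 (score 20.3), Mirlet7a-1 at -0.21 (score 6.6), Mir93 at 0.21 (score 5.1) and Mir20a at -0.20 (score 11.4).

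Neither gene of the studied pair held a region. Mir221 (chromosome X, 19146294 to 19146388, minus strand) had 1 region within 1000 nt on its strand, beginning at 19145345, with a depth of 4.4, a score of 1.9 and a mean difference of -0.28. Mir222 (chromosome X, 19146893 to 19146971) had no region within that distance on either strand. In RNA-seq Mir221 had 0 reads in each KO library, against 0, 0, 3 and 1 reads in Flox libraries 1 to 4. For Mir222 every KO and Flox library had 0 reads, a count that is still compatible with up to 3. These counts are too low to check the labels.

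The next comparison was of tags by class. snRNA regions held 52.2% of the summed depth of small RNA regions and snoRNA regions 31.9%, against 7.60% in misc_RNA, 7.37% in miRNA and 0.882% in scaRNA regions. The order of the smaller classes turns with the measure: by tag nucleotides summed over all bins, miRNA regions held 14.9% and misc_RNA regions 10.6%, and with at least 50% of the region inside the gene, the miRNA share of depth was 3.99%. The median region depth was 55.5 tags in snRNA, 54.2 in snoRNA, 23 in scaRNA, 22.6 in misc_RNA and 15.4 in miRNA genes, against 5.8 over all regions kept. The middle 50% of regions ran from 13 to 212 tags in snRNA and from 7.9 to 35.3 in miRNA genes. Small RNA genes thus took 3.11% of the summed depth with 0.296% of the regions. These are depths of pooled libraries, and fewer cells with a transcript cannot be told apart from less of it per cell.

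A region was found in 668 of 1385 snRNA genes (48.2%), 20 of 41 scaRNA genes (48.8%), 377 of 1484 snoRNA genes (25.4%), 110 of 563 misc_RNA genes (19.5%) and 264 of 1900 miRNA genes (13.9%). Named snoRNA genes were met far more often than the predicted ones that make up most of the class. Snord genes, which encode box C/D guides of 2′-O-methylation, had a region in 78 of 97 cases. Snora genes, which encode box H/ACA guides of pseudouridylation, had one in 39 of 40, and all 5 Rnu3 genes had one. The median region depth was 230.6 tags at Snord genes, 49.8 at Snora genes and 1045.6 at Rnu3 genes.

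Many of these genes lie inside others. Of miRNA regions 61.2% lay in a protein_coding gene on the same strand, as did 68.3% of snoRNA, 62.3% of scaRNA, 26.3% of misc_RNA and 19.2% of snRNA regions. Among genes with a highest bin of at least 100 tags, 77 of 333 snRNA genes shared exactly the same highest value with another snRNA gene, as did 21 of 183 snoRNA and 2 of 20 miRNA genes. Near-identical copies are common among snRNA genes, and how reads were divided between copies is not given in the sources used here, so values of single snRNA loci are uncertain.

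The position of tags along the gene differed between classes. At snRNA genes tags were concentrated near the middle, with 17.3% and 17.4% of a gene's tags in the fourth and the fifth of 10 equal parts of its length, as a mean over 668 genes. At snoRNA genes the share was highest near the 3′ end, 16.3% in the ninth part and 14.2% in the last, against 5.03% in the first. Snora genes held 17.5% in the ninth part and 15.3% in the last, and Snord genes peaked at 14.7% in the eighth and had 8.07% in the last. miRNA genes were highest at the ends, with 16% in the first part and 19.8% in the last, against 5.50% in the fifth, and misc_RNA genes had 17.5% in the seventh.

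**Figure D3:**
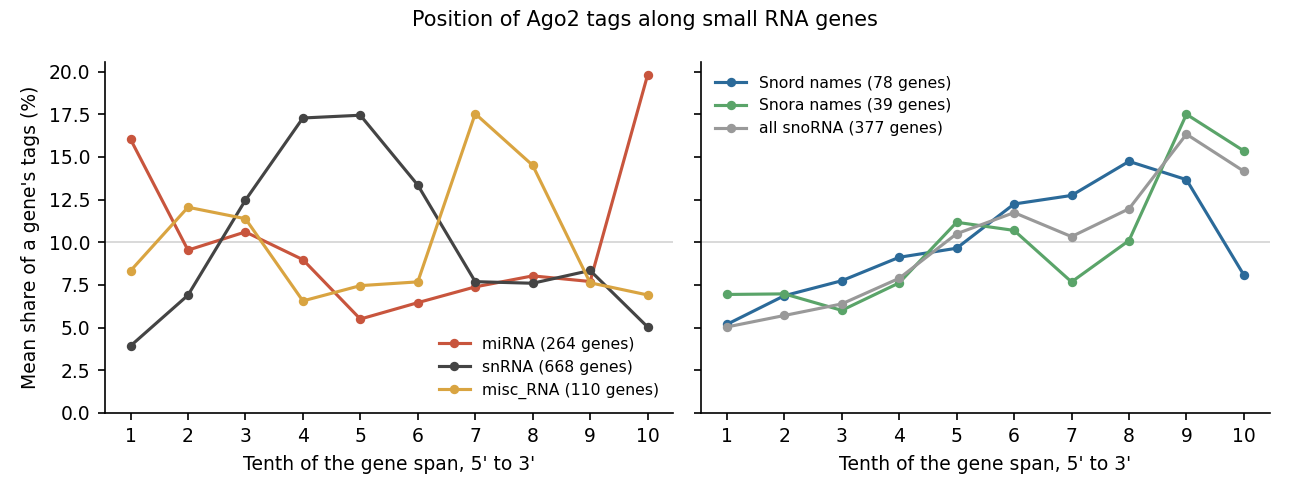
Mean share of a gene's Ago2 tags in each of 10 equal parts of its span, from 5′ to 3′, for genes with a region; the grey line marks an even spread over 10 parts. snRNA genes peak in the fourth and the fifth part (17.3% and 17.4%), snoRNA genes in the ninth (16.3%) and miRNA genes in the last (19.8%).

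Mutations, which the deposited output counts per bin and which can mark the crosslinked base in this assay, were unevenly spread over the classes. There were 1.80 per 1000 tag nucleotides in miRNA, 1.21 in snRNA, 0.93 in misc_RNA, 0.78 in snoRNA and 0.11 in scaRNA regions, against 0.43 over all regions kept. The miRNA value rests in large part on the regions at Gm23935 and Gm24270, which reach far beyond the genes and held 2112 of the 3441 mutations. Without these 2 regions it was 1.47, and at miRNA genes with a RefSeq mature miRNA it was 1.34. The kinds of mutation counted are not given in the sources used here.

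Among the 12 miRNA genes with most tags, 10 carry only predicted gene names. Gm23935 (ENSMUSG00000076258, chromosome 16, 11144125 to 11144181) had a depth of 1867 tags, and Gm24270 (ENSMUSG00000076281, chromosome 9, 56223715 to 56223771), inside Peak1, had 1679.8. Gm25911, Gm24187 and Gm24245 had 1669.8, 1651.2 and 1354.2. The regions reached well beyond these genes: that at Gm23935 was 420 nt wide over a gene of 57 nt, and that at Gm24270 380 nt over 57 nt. Mir6236 had 1139 tags and Mir6240 256.4, both with a score of 0. The remaining 5 were Gm27844 with 621.2, Gm25732 with 424.6, Gm26377 with 286.8, Gm23388 with 249.4 and Gm26384 with 234.8, and Gm25732 and Gm24245 shared 1 region. RefSeq's table held a mature miRNA for 916 of 1900 miRNA genes in the deposited table. Those 916 had 121 regions at 90 genes with a median depth of 10 tags, and the 984 others had 292 regions at 174 genes with a median of 16.8.

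Among the deepest genes of the other classes were several well known ones. The 4 Rnu3b genes, copies of the U3 snoRNA that takes part in cutting ribosomal RNA, lie side by side on chromosome 11 and had 1178.8 (Rnu3b1), 1177.2 (Rnu3b3), 1160.8 (Rnu3b4) and 1142.4 (Rnu3b2) tags. Rn7sk (chromosome 9, 78175303 to 78175633), the 7SK RNA that holds the elongation factor P-TEFb inactive, had 1537.4. Rn7s2 and Rn7s1, genes of the 7SL RNA of the signal recognition particle, had 950 and 917.6, and Gm24447 had 785.6. Among snRNA genes Gm24871 had 1031.8, Gm24265 had 838.6, Gm24407 had 812 and Gm23971 had 762.8. Among scaRNA genes Gm22009 had 401.2 and Scarna2 280.2, followed by Gm22442 with 82.2 and Gm24289 with 79.4.

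The next question was whether tags at small RNA genes differed between the pair of pooled conditions. The classes leaned to different signs. The rule was passed with a positive sign by 135 of 779 snoRNA regions (17.3%, exact binomial 95% interval 14.7 to 20.2) and with a negative sign by 24 (3.08%, 1.98 to 4.55). Of 1348 snRNA regions 60 passed with a positive sign (4.45%, 3.41 to 5.69) and 165 with a negative sign (12.2%, 10.5 to 14.1). Of 412 miRNA regions 12 passed with a positive sign (2.91%, 1.51 to 5.03) and 58 with a negative sign (14.1%, 10.9 to 17.8). Most negative calls lay at miRNA genes without a RefSeq mature miRNA, where 9 of 292 regions were positive and 56 negative (3.08% and 19.2%). At miRNA genes with one, 4 of 121 regions were positive and 2 negative (3.31% and 1.65%). The 56 include all 25 negative regions in the host gene Sfmbt2, described below, where no miRNA gene with a region had a RefSeq mature miRNA. Median depth also differed, at 16.8 tags without and 10 with one, and its part in this split was not tested. The counts were 7 and 1 of 53 for scaRNA and 12 and 25 of 255 for misc_RNA regions. Judged by the bin of largest difference instead of the mean, 26.2% of snRNA, 6.03% of snoRNA and 20.9% of miRNA regions were negative and 25.4% of snoRNA, 6.97% of snRNA and 5.83% of miRNA regions positive. With a score of at least 10, 9.05% of snRNA, 1.54% of snoRNA and 8.74% of miRNA regions were negative. The share over all regions kept was not computed under either alternative, so these shares have no background here. Over all small RNA regions 226 were positive and 273 negative, 17.5% together, against 8.13% of all regions kept. Among regions with at least 20 tags the order was the other way, with 23.8% of 1746 small RNA regions past the rule, against 32.1% of all such regions. The intervals cover counting error only. Regions of 1 gene are not independent, and regions at near-identical gene copies may not be either, so the intervals can be too narrow. With 1 pooled value per condition there was no test between replicates.

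Depth moved with these shares. Of all regions with at least 20 tags, 17.9% passed with a positive and 14.2% with a negative sign. At that depth snoRNA regions passed in 127 and 14 of 528 cases (24.1% and 2.65%), snRNA regions in 45 and 142 of 893 (5.04% and 15.9%) and miRNA regions in 8 and 41 of 161 (4.97% and 25.5%). The miRNA value rests on an array of miRNA genes in the host gene Sfmbt2: without it 19 of 121 regions (15.7%) were negative and 8 (6.61%) positive. Against all regions with at least 20 tags, the negative share of snRNA regions, and that of miRNA regions without Sfmbt2, were near the background. The positive share of snRNA and miRNA regions and the negative share of snoRNA regions were below it. The limit of 20 tags is a floor and does not match depth. Above it the median depth was 31 tags over all regions, against 139.6 in snRNA, 119.6 in snoRNA and 49 in miRNA regions. The median difference was 0.02 in snoRNA, -0.01 in scaRNA, -0.05 in snRNA, -0.05 in misc_RNA and -0.07 in miRNA regions, against -0.04 over all regions kept.

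**Figure D4:**
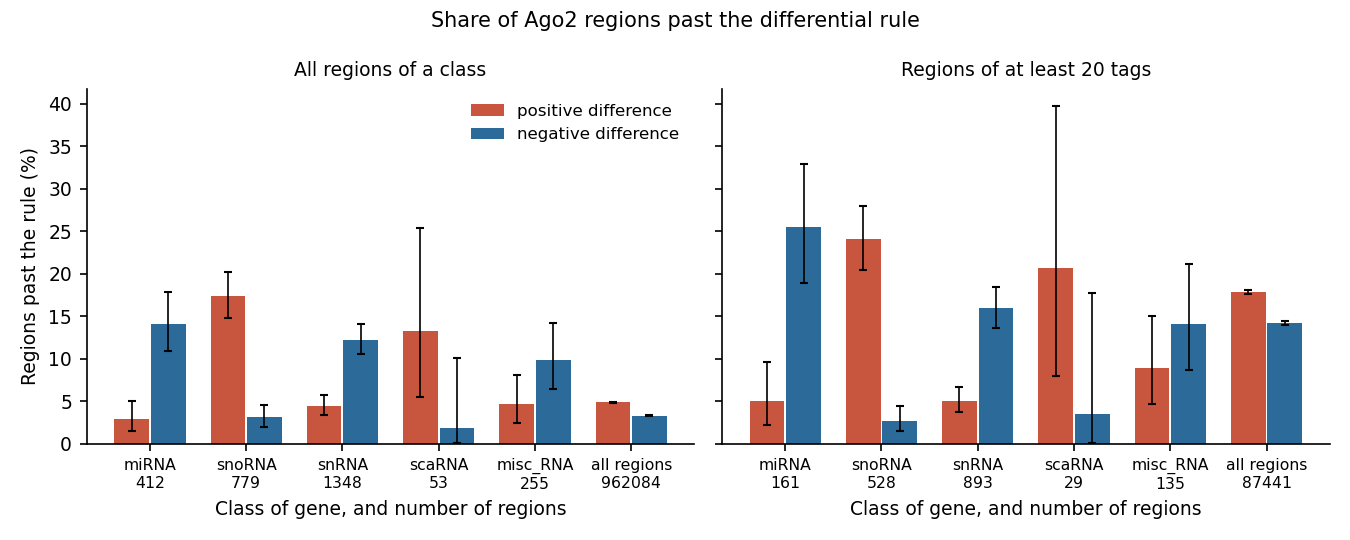
Share of Ago2 regions past the differential rule with a positive or a negative sign, by class of gene and over all regions kept (bars, with exact binomial 95% intervals), for all regions (left) and those with at least 20 tags (right). Positive calls lead in snoRNA regions (17.3%) and negative calls in miRNA (14.1%) and snRNA (12.2%) regions. The sign follows the deposited output, whose conditions are not named.

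Among named guides, Snord regions passed in 33 (positive) and 3 (negative) of 154 cases, Snora regions in 23 and 4 of 99, and Rnu3 regions in 1 and 0 of 9. With at least 20 tags, 24.4% of 135 Snord regions were positive and 2.22% negative, and 28.2% of 78 Snora regions were positive and 2.56% negative. All regions with at least 20 tags gave 17.9% and 14.2%, and were not matched to these in depth. These differences from the background were not tested. Host genes varied. In Rpl4, which encodes a protein of the large ribosomal subunit, 11 regions at 5 snoRNA genes had a median depth of 360.4 and a median difference of 0.20, against 13.9 and -0.03 in 52 other regions of the gene. In Eif4a2, which encodes a translation initiation helicase, 10 regions at 5 snoRNA genes had a median difference of 0.07 with 4 positive and 0 negative calls, while 75 other regions had 14 and 5. In Gas5, a noncoding host, 14 regions at 8 snoRNA genes had a median depth of 401.1 and 2 positive and 1 negative calls, while 39 other regions had 12 and 4. These 3 hosts were chosen after their values were seen. Among snoRNA regions with at least 20 tags and a score of at least 5, the largest differences were those of Gm23017 (0.60, score 33.4) and Snord70 (0.51) with a positive sign, and of Gm24119 (-0.51) and Snora16a (-0.38) with a negative sign. Snora16a also held a positive region, at 0.42.

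Of the 58 negative miRNA regions, 25 (43.1%) lay in 1 host gene, Sfmbt2 (chromosome 2, 10370510 to 10595253), a polycomb group gene whose intron is known to hold a large tandem array of miRNA genes in the mouse. This host was singled out after its values were seen. The table listed 107 miRNA genes there, and 47 of them had 79 regions between 10465295 and 10517664. Their depth ran from 1.2 to 133 tags with a median of 20, and their differences from -0.43 to 0.02, with only 5 above 0. Of the 79 regions 25 passed the rule with a negative sign and 0 with a positive sign. The 27 other regions of Sfmbt2 had a median difference of -0.09 with 4 negative and 0 positive calls, against -0.19 at the miRNA genes. These other regions were also shallower, with a median depth of 10 tags, and the gap was not tested. Without Sfmbt2, at any depth, 33 of 333 miRNA regions (9.91%) were negative and 12 (3.6%) positive. The array's miRNA genes resemble each other, and 17 of the 47 had a highest bin equal to that of another, so that values of its single genes are uncertain.

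The rule for naming took 4 of its 5 negative miRNA genes from this array. Gm23288 had a difference of -0.43 (depth 26, score 12.3), Gm25943 -0.43 (depth 133, score 38.3), Gm24315 -0.41 (depth 100, score 30.9) and Gm22166 -0.39 (depth 25, score 10.5). Among array members with a miRNA name, Mir669i had -0.36 (depth 101) and Mir669j -0.37 (depth 27). The fifth was Gm27486, inside Sbno1, at -0.39 with a depth of 22.

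Positive miRNA regions were fewer. Mir5107, inside Cd74, the invariant chain of MHC class II, had a region at 0.37 (depth 104.4, score 34.1) and another at -0.18. Gm26384 held a region at 0.35 (score 71.5) and one at -0.30 (score 25.7) in a span of 110 nt. Gm25931, inside B4galt1, had one at 0.31 and one at -0.26. Gm24022 and Gm22175 lie close together on chromosome 12, in the range of the immunoglobulin heavy chain locus, and had differences of 0.29 and 0.28. Of the genes with most tags, Gm23935, Gm24270 and Gm24187 each had 1 negative region, at -0.26 in all 3, while Gm25911 had a positive region at 0.28 beside its deepest one at -0.25, which just missed the limit on size.

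Among the other classes, opposite signs within 1 gene were also seen. Rn7s2 and Rn7s1 passed with a negative sign, at -0.31 and -0.29, and Rn7sk at -0.25, while its deepest region, at -0.23, missed the limit. Gm23971, an snRNA gene, had a positive region at 0.34 beside a deeper one at -0.23, which missed the limit on size. Among snRNA regions with at least 20 tags and a score of at least 5, the largest differences were those of Gm26065 (0.49) and Gm24584 (0.41), and of Gm25326 (-0.48) and Gm25412 (-0.46). Gm25395, a scaRNA gene, held both 0.38 and -0.39, and Gm23751 held 0.33. Scarna2 had positive regions at 0.30 and 0.30 in a span of 414 nt, with its lowest region at -0.23. In the misc_RNA class Gm27624 held 0.43, Gm26023 held 0.41, Gm24139 held -0.48 and Gm24379 held -0.39.

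RNA-seq asked whether the small RNA genes themselves, or rather the reads over them in total RNA, differed between KO and Flox. Depth was 22947689 to 39236132 reads in KO and 25421025 to 39616596 in Flox libraries, of which small RNA genes took 0.0208% to 0.0299% in KO and 0.0262% to 0.0376% in Flox. B cell markers summed to 72002 to 97206 normalized counts in KO and 90135 to 95923 in Flox libraries, against 2.6 to 30.8 and 4.7 to 15.7 for T cell markers, 6.9 to 40.4 and 5.2 to 22.7 for myeloid markers and 0 to 3.5 and 0 to 0 for red cell markers, and their part in the results was not tested. Of these markers 5 of 5 B cell genes were detected, while 2 of 4 myeloid and 4 of 5 red cell genes were at 0 in all 8 libraries. Of 13091 genes with a mean of at least 10 normalized counts, 83 were small RNA genes, 62 of them snoRNA and 15 miRNA genes, so most small RNA genes were too sparsely read to test.

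None of the 83 passed an adjusted p of 0.05 by limma, edgeR or DESeq2, where 9 of 13091 genes (0.0687%) passed by limma. At an unadjusted p under 0.05 limma gave 15 of 83, edgeR 10 and DESeq2 12, beside 15.1% of all genes tested by limma. The groups did not overlap in 8 of the 83, beside 7.97% of all genes. The median log2 fold change of the 83 was -0.21 with 29 above 0, against -0.01 over all genes tested. By edgeR and DESeq2 it was -0.10 with 36 above 0, and without KO 1 and KO 3 together it was -0.02 with 40 above 0. Of the 62 snoRNA genes 16 were above 0, with a median of -0.22, and of the 15 miRNA genes 9 were above 0, with a median of 0.08. The labels do not say that libraries came from separate mice, so p-values measure only the spread between these libraries.

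The 5 genes with the smallest p were snoRNA genes, and none passed. Snord7 had 6.3, 5.2, 6.9 and 15.2 normalized counts in KO libraries 1 to 4, against 18.8, 20.9, 18.5 and 23.8 in Flox libraries. The groups did not overlap, and limma put the difference at -1.29 on the log2 scale (SE 0.39, adjusted p = 0.241). Gm26457 had 6.3, 9.1, 11.6 and 18.2 in KO libraries, against 25.5, 26.2, 26.6 and 22.7 in Flox libraries, a log2 fold change of -1.18 (SE 0.36). Every KO value again lay under every Flox value. Snora24, a box H/ACA guide, had 31.7, 67.8, 27.7 and 58.4 in KO libraries, against 69.1, 93.4, 70.6 and 95 in Flox libraries, a log2 fold change of -0.89. Snord16a had 1.1, 24.8, 13.9 and 37.9 in KO libraries, against 45.1, 45.4, 64.8 and 53.7 in Flox libraries, and Snord65 had 7.4, 37.8, 20.8 and 53.8, against 48.1, 72.4, 66 and 62. Of these, Snora24, Snord16a and Snord65 were lowest in KO 1 and KO 3, and without both libraries their log2 fold changes of -0.89, -1.98 and -1.32 came to -0.36, -0.73 and -0.44. Fold changes here are on the scale of log2 of the value plus 1, and for genes this low they move with the method: Snord16a had -1.98 by limma, -1.38 by edgeR and -1.41 by DESeq2, and -1.10 by limma without KO 1 alone. With a pseudocount of 10 in place of 1, Snord7 came to -0.76, Gm26457 to -0.75 and Snord16a to -1.26.

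**Figure D5:**
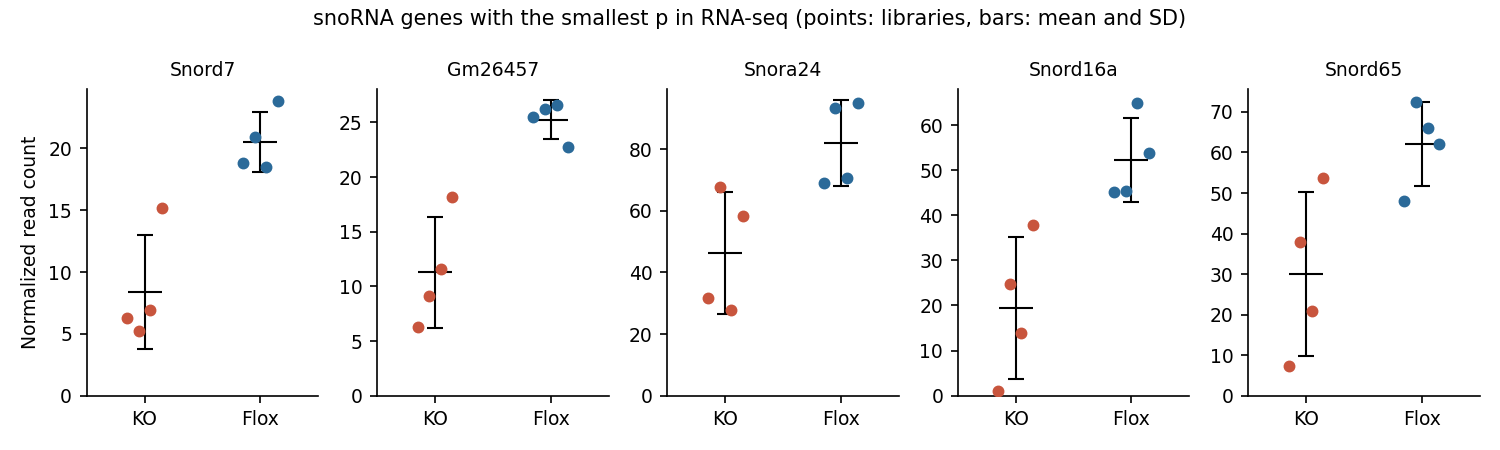
Normalized read counts of the 5 small RNA genes with the smallest p in RNA-seq, in 4 KO (left) and 4 Flox (right) libraries each, with the mean and SD. KO values lie below Flox values except in Snord65, where KO 4 at 53.8 exceeds Flox 1 at 48.1; none passed an adjusted p of 0.05.

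The last comparison was of the host genes of named miRNA genes. None of 40 hosts tested passed by limma or edgeR, and 6 had an unadjusted p under 0.05 by limma, where 15.1% of all genes did. Of these 6, Peak1, Huwe1 and Sfmbt2 were higher in KO. Mir22hg, 4833445I07Rik and 6720427I07Rik were lower, with log2 fold changes of -0.47, -0.34 and -0.26. DESeq2 called 2 hosts, and 1.52% of all genes. Peak1, a pseudokinase gene of the cytoskeleton and host of Gm24270, had 1685, 1330, 1638 and 1338 normalized counts in KO libraries, against 1157, 1166, 860.3 and 871.9 in Flox libraries. Every KO library was above every Flox library, by 0.57 on the log2 scale (SE 0.13), at an adjusted p of 0.238 from limma and 0.0196 from DESeq2. The authors' deposited table gives Peak1 an FDR of 0.0192. Sfmbt2, host of the negative miRNA array, had 195.5, 247.8, 244 and 172 in KO libraries, against 167.5, 144, 134.3 and 113.6 in Flox libraries. Its groups did not overlap either, with the KO libraries higher, at 0.61 on the log2 scale (SE 0.18). The adjusted p was 0.239 from limma and 0.0654 from DESeq2. Since the CLIP conditions are not named, this fold change of Sfmbt2 cannot be set against the sign of its regions. Huwe1, a ubiquitin ligase gene and host of Mirlet7f-2 and Mir98, was named after its values were seen, since its p was the second smallest among hosts. It had 26179, 21948, 27540 and 22882 normalized counts in KO libraries, against 20320, 20062, 14673 and 14839 in Flox libraries. The groups did not overlap, and the log2 fold change was 0.51 (SE 0.13) at an adjusted p of 0.239 from limma. Another let-7 host, 6720427I07Rik, which holds Mirlet7d, went the other way. Its groups did not overlap either, with the KO libraries lower, at -0.26 (SE 0.12) and an adjusted p of 0.330 from limma. The groups of the hosts 4833445I07Rik and Spaca6 did not overlap either. Over all genes tested the groups did not overlap in 7.97%. Sbno1, Eef1a1, Cd74 and B4galt1 had log2 fold changes of 0.17, 0.14, 0.13 and 0.02, and none passed. Zfp791, host of Gm23388, had -0.21, and its sign turned with 1 library left out.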

How the data were processed

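Ago2 HITS-CLIP and RNA-seq values were taken from the authors' deposited files. Per the submitters' processing notes the tools were cutadapt, Bowtie2, SAMtools, STAR, DESeq2 and DESeq, with no versions or roles, and the build mm9, although gene and CLIP positions are those of GRCm38. The deposited dCLIP tables list, for bins of 5 nt, tags and mutations of a pair of conditions (merged libraries, names not in the file headers), the score of their difference, and a hidden state whose probability is a fraction; each region of the deposited summary carries a score. Tag values were read as tag nucleotides per bin, from their steps; the sum of both conditions divided by 5 is the depth, and a region's depth and tag count are that of its highest bin. Regions on unplaced sequence, or below position 3000000 outside chromosomes M and Y, were left out (616 of 962700). Differences were averaged over the bins of a region, and their sign is given as deposited.

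RNA-seq values in the authors' table are a signal, gene counts divided by a size factor per library, beside which the authors deposited variance-stabilized log2 values, p-values, the fold change as a ratio and on the log2 scale, and GC content (percent), by the file headers. All values (100%) were whole reads within 0.1 read. limma-trend (3.58.1) was run on log2 of the value plus 1 for genes with a mean of at least 10, two-sided, with Benjamini-Hochberg adjustment over 13091 genes and a threshold of 0.05; edgeR (4.0.16) and DESeq2 (1.42.0) on the recovered reads were alternatives. The test was checked on simulated counts with the same dispersion setting for every gene. That check does not measure its power for small RNA genes that vary more between libraries. Intervals are exact binomial (Clopper-Pearson).

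Named genes were, by rule, the 12 miRNA genes and 4 genes of each other class with most tags, the 5 miRNA genes and 2 of each other class per sign with the largest difference among genes holding a region of at least 20 tags and a score of at least 5, Mir221, Mir222, a list of miRNAs, tested hosts, and the 5 small RNA genes with the smallest p. Members, lists and limits were chosen with earlier results of these data known. Hairpins were matched to RefSeq (GRCm38.p6) by symbol and span, 866 in all.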

Additional observations from a re-analysis of the deposited data

Results flagged for a closer look

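In groups of 4 libraries, 3 values stood far from the others of their group, among 26 groups looked at, where chance marks about 1 in 20. Snord7 in KO library 4 was at 15.2 normalized counts, above the other KO libraries. Sbno1 in KO library 3 was at 7502 normalized counts, above the other KO libraries. The share of reads in small RNA genes in KO library 3 was 0.0208%, below the other KO libraries. Its miRNA share was 0.00840%, against 0.0183%, 0.0149% and 0.0166% in KO 1, KO 2 and KO 4. Its snoRNA share, 0.00963%, was above that of KO 1 (0.00943%). The miRNA gene Gm23935 had 135 reads in KO 3, against 1642, 1812 and 3257 in KO 1, KO 2 and KO 4.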

How the results depend on the processing

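For CLIP, the number of member regions was 2847 and came to 1704 outside protein_coding genes and 141 on the opposite strand; the other alternatives kept it within 1.5-fold. The positive share of 7.94% came to 0.0702% at a difference of at least 0.5, 12% by the bin of largest difference, 9.92% and 11.3% at depths of at least 10 and 20 tags, 11.6% at 20 tags without Sfmbt2, and 5.87% outside protein_coding genes. The negative share of 9.59% came to 0.0702% at a difference of at least 0.5, 12% with no limit on score, 6.60% at a score of at least 10, 19% by the bin of largest difference, 11.6% weighted by tags, 12.1% and 12.4% at depths of at least 10 and 20 tags, 11.4% at 20 tags without Sfmbt2, and 11% outside protein_coding genes. The limit of 20 tags and the values without Sfmbt2 were chosen after seeing the data. Of these alternatives, only the limit of 20 tags was also applied to all regions kept. The miRNA share of depth, 7.37%, came to 14.9% as a sum over bins, 3.99% with at least 50% of the region inside the gene and 6.84% without the gene with most tags.

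In RNA-seq no alternative called a small RNA gene. The count at an unadjusted p under 0.05, 15, was 54 with no filter, 2 at a mean of at least 50, 7 without KO 1 and KO 3 together, and 7 to 22 with a library left out, lowest without Flox 3. Hosts called were 0, and 2 by DESeq2 (Peak1 among them, adjusted p = 0.0196). Over all genes tested limma called 9, edgeR 10, DESeq2 199, and limma 17 without KO 2, 14 without KO 4 and 6 without KO 1 and KO 3 together. Zfp791 changed sign, to 0.0164 by edgeR, 0.0300 by DESeq2, 0.21 without KO 1 and KO 3 together, and with a library left out ran from -0.60 to 0.47 (0.47 without KO 1, 0.07 without Flox 1). B4galt1 changed sign to -0.0342 without KO 1 and KO 3 together, and with a library left out ran from -0.0582 (without KO 3) to 0.0843. Same-numbered KO and Flox libraries did not deviate together (correlations -0.09, -0.06, -0.05 and 0.00). Differently numbered libraries were not compared, so this check cannot tell whether the numbers pair the libraries. With the replicate block 0 small RNA genes passed and 15 had an unadjusted p under 0.05. The cause of these changes was not tested. CLIP library depth and replicate error are not known from the pooled output, so 1 tag more or less in shallow regions cannot be judged.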
